A study of Mus musculus with 3 samples.

Results

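Collagens are extracellular matrix proteins in which chains rich in glycine wind into a triple helix. Mouse genes for them are grouped by the structure that the protein builds. Fibrillar collagens pack into the banded fibrils of bone, tendon and skin. Type IV collagen forms the network of basement membranes. The FACIT collagens, whose helices are interrupted, sit on the surface of fibrils, type VI forms beaded filaments close to cells, and transmembrane collagens span the cell surface. The genes described here were all those whose symbol has the form Col, number, a, number, after the 8 collagens typical of cartilage (Col2a1, Col9a1, Col9a2, Col9a3, Col10a1, Col11a1, Col11a2 and Col27a1) were left out. They came to 34 genes on 69 probe sets, of 18193 genes with a single symbol and 45101 probe sets in all.

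The signals came from sorted cells of C57BL/6 mouse femur and tibia, freed from the bone fragments with collagenase and labelled as endosteal, with bone marrow as the source. Blood, endothelial and erythroid cells had been removed by the surface markers CD45, CD31 and Ter119. The remaining cells were divided by PDGFRa, a PDGF receptor carried by mesenchymal cells, and by Sca-1, which is used in sorting to enrich for progenitors. The 3 fractions were PDGFRa(+) Sca-1(+), PDGFRa(+) Sca-1(-) and PDGFRa(-) Sca-1(-). Each fraction was measured on 1 Affymetrix array after the RNA had been amplified in 2 cycles; neither age nor the number of mice is stated. With 1 array a fraction, no difference has a replicate check and no p-value was computed. That number of arrays limits the precision.

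Values are MAS5 signal intensities on a linear scale. A floor of 93.2, the mean of the array medians, stood in for detection calls. A gene was called higher or lower where its signals differed 2-fold or more, and where 1 of the arrays was under the floor the fold is a bound ("at least"). Each gene is represented by its brightest probe set (mean of log2 signals), and signals of different genes are not compared with each other because each probe set has its own response. The log2 ratios of different probe sets of a gene scattered with an SD of 0.60 for PDGFRa(+) Sca-1(+) over PDGFRa(+) Sca-1(-), 0.37 for PDGFRa(+) Sca-1(-) over PDGFRa(-) Sca-1(-) and 0.50 for PDGFRa(+) Sca-1(+) over PDGFRa(-) Sca-1(-). That SD covers probes and transcripts, not animals.

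Pdgfra was higher in both fractions labelled PDGFRa(+) than in the negative one, and the fractions differed in other cell type markers. Pdgfra had a signal of 12846 in PDGFRa(+) Sca-1(+) cells, 2420 in PDGFRa(+) Sca-1(-) cells and 586 in PDGFRa(-) Sca-1(-) cells, so it was lowest in the fraction labelled negative but above the floor there. The fractions sharing the PDGFRa(+) label were 5.31-fold apart, and the Sca-1(-) fractions 4.13-fold. The Sca-1 label was not checked against a gene here. Ptprc, which encodes CD45, and Pecam1, which encodes CD31, were under the floor on all 3 arrays. Other blood markers were not all absent. Of 7 with a probe set, 3 were above the floor in PDGFRa(+) Sca-1(+), 4 in PDGFRa(+) Sca-1(-) and 4 in PDGFRa(-) Sca-1(-) cells. Lyz2 had 353, 152 and 134 in that order, Cd68 239, 265 and 286, and Hemgn 53.8, 138 and 360. The 10 chondrocyte markers were above the floor on every array, with a summed signal of 42104 in PDGFRa(+) Sca-1(+), 245457 in PDGFRa(+) Sca-1(-) and 234396 in PDGFRa(-) Sca-1(-) cells. The 9 osteoblast markers with a probe set summed to 4859, 109212 and 47721 in the same order. That list includes Col11a2 (348, 13300.5 and 11935), one of the cartilage collagens left out above. The Actb 3' to 5' signal ratio, a sign of how far the array favours the 3' end, was 4.65, 2.63 and 2.99 in that order. The part of these differences in the collagen results was not tested. In bulk RNA, fewer cells of a type and less RNA per cell cannot be told apart.

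Of the 34 collagen genes, 22 lay above the floor on all 3 arrays, 5 on 2 arrays and 1 on a single array. The 6 under the floor throughout were Col4a3, Col19a1, Col6a4, Col6a5, Col17a1 and Col23a1. Their highest signal was 90.2, for Col23a1 in PDGFRa(+) Sca-1(+) cells. Of the 28 others, 19 were 2-fold or more apart in at least 1 of the 3 comparisons. Passing the floor through a high array favours such a difference, so these counts describe the genes that passed and are read beside the share of all genes called. That share was 26.2% for PDGFRa(+) Sca-1(+) over PDGFRa(+) Sca-1(-) cells (14.9% higher and 11.3% lower), 10.4% for PDGFRa(+) Sca-1(-) over PDGFRa(-) Sca-1(-) cells (4.82% and 5.63%) and 26.6% for PDGFRa(+) Sca-1(+) over PDGFRa(-) Sca-1(-) cells (14.5% and 12.2%).

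**Figure D1:**
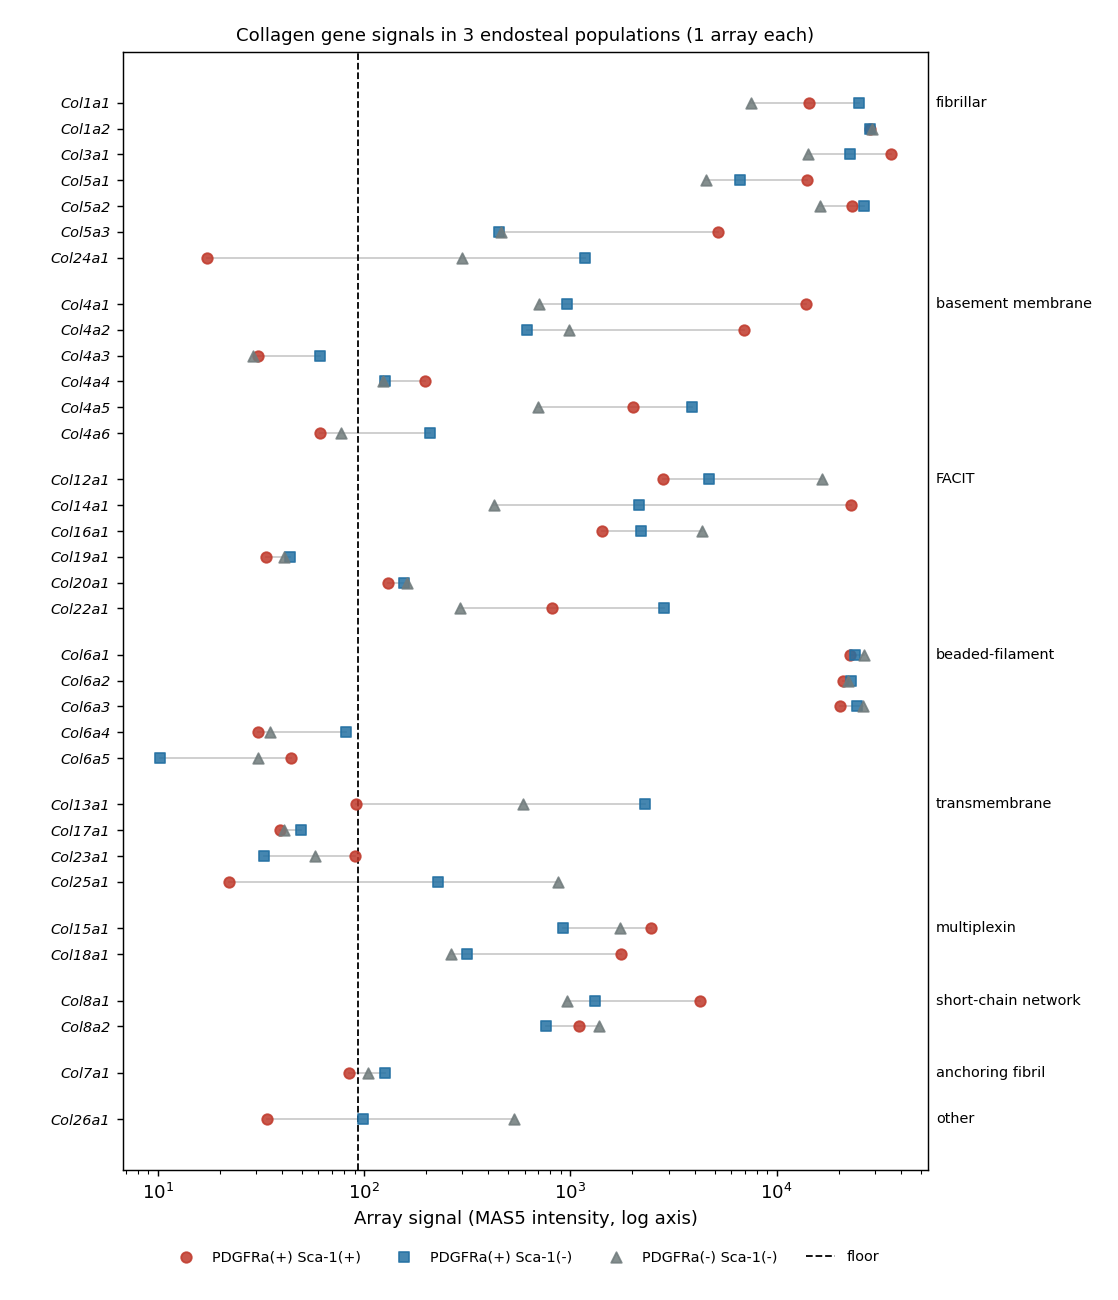
Signal of each of the 34 collagen genes (log axis, MAS5 intensity) in PDGFRa(+) Sca-1(+) (red circles), PDGFRa(+) Sca-1(-) (blue squares) and PDGFRa(-) Sca-1(-) cells (grey triangles), 1 array each, grouped by class. The dashed line is the floor of 93.2; Col4a1, Col5a3 and Col14a1 stand apart in PDGFRa(+) Sca-1(+) cells, and the 3 type VI genes Col6a1, Col6a2 and Col6a3 lie between 20202 and 26405 on every array.

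Col5a3, Col5a1 and Col3a1 were highest in PDGFRa(+) Sca-1(+) cells, Col1a1 and Col24a1 in PDGFRa(+) Sca-1(-) cells. All 7 fibrillar genes passed the floor on at least 1 array. In PDGFRa(+) Sca-1(+) over PDGFRa(+) Sca-1(-) cells 2 were higher (28.6%) and 1 lower (14.3%), against 14.9% and 11.3% of all genes compared. In PDGFRa(+) Sca-1(-) over PDGFRa(-) Sca-1(-) cells 2 were higher (28.6%) and 0 lower, against 4.82% and 5.63%. In PDGFRa(+) Sca-1(+) over PDGFRa(-) Sca-1(-) cells 3 were higher (42.9%) and 1 lower (14.3%), against 14.5% and 12.2%.

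Col1a1 and Col1a2 encode the 2 chains of type I collagen, the main fibril protein of bone. Col1a1 had a signal of 14417 in PDGFRa(+) Sca-1(+) cells, 25131 in PDGFRa(+) Sca-1(-) cells and 7476 in PDGFRa(-) Sca-1(-) cells. It was thus 3.36-fold higher in PDGFRa(+) Sca-1(-) than in PDGFRa(-) Sca-1(-) cells, with PDGFRa(+) Sca-1(+) cells between them and within 2-fold of each. Its other probe set gave 7633, 24845 and 5993 in the same order, which is 3.26-fold lower in PDGFRa(+) Sca-1(+) than in PDGFRa(+) Sca-1(-) cells, past the threshold that the first probe set (1.74-fold) did not reach. Col1a2 had 28323, 28482 and 29086 in that order, a flat profile at signals not far below the arrays' maxima, which were 38540 to 42074. A second Col1a2 probe set gave 20585 in PDGFRa(+) Sca-1(+), 35666 in PDGFRa(+) Sca-1(-) and 22099 in PDGFRa(-) Sca-1(-) cells, highest in PDGFRa(+) Sca-1(-) cells as Col1a1 was, but within 2-fold in all comparisons. The third and dimmest gave 1164, 655 and 375, which was 3.11-fold higher in PDGFRa(+) Sca-1(+) than in PDGFRa(-) Sca-1(-) cells. The type I chains therefore had unequal log2 ratios for PDGFRa(+) Sca-1(-) over PDGFRa(-) Sca-1(-) cells, 1.75 for Col1a1 and -0.03 for Col1a2, but those of Col1a2 ran from -0.03 to 0.81 over its probe sets. The part of saturation at such signals was not tested.

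Col3a1 encodes type III collagen, which runs beside type I in soft and distensible tissues. Its brighter probe set had 35974 in PDGFRa(+) Sca-1(+) cells, 22561 in PDGFRa(+) Sca-1(-) cells and 14262 in PDGFRa(-) Sca-1(-) cells. The dimmer one had 21858, 2581 and 828 in that order. Both were highest in PDGFRa(+) Sca-1(+) and lowest in PDGFRa(-) Sca-1(-) cells, yet they differed in size. For PDGFRa(+) Sca-1(+) over PDGFRa(+) Sca-1(-) cells the ratio was 1.59-fold by the brighter and 8.47-fold by the dimmer probe set, and for PDGFRa(+) Sca-1(+) over PDGFRa(-) Sca-1(-) cells it was 2.52-fold and 26.4-fold. Only the second of these comparisons was called by both.

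Type V collagen sits inside type I fibrils and sets how they start and how wide they grow. Col5a1 had a signal of 14043 in PDGFRa(+) Sca-1(+) cells, 6641 in PDGFRa(+) Sca-1(-) cells and 4559 in PDGFRa(-) Sca-1(-) cells. It was 2.11-fold higher in PDGFRa(+) Sca-1(+) than in PDGFRa(+) Sca-1(-) cells, and the log2 ratio was 1.08, 1.10 or 1.15 depending on the probe set, past the threshold by little each time. Col5a2 had 23165, 26426 and 16189 in that order, within 2-fold in all comparisons, although its other probe set was 2.17-fold higher in PDGFRa(+) Sca-1(-) than in PDGFRa(-) Sca-1(-) cells. Col5a3, the third chain, had a signal of 5194 in PDGFRa(+) Sca-1(+) cells, 449 in PDGFRa(+) Sca-1(-) cells and 459 in PDGFRa(-) Sca-1(-) cells. That is 11.6-fold higher in PDGFRa(+) Sca-1(+) than in PDGFRa(+) Sca-1(-) cells and 11.3-fold higher in PDGFRa(+) Sca-1(+) than in PDGFRa(-) Sca-1(-) cells, while the Sca-1(-) fractions were within 2-fold of each other. Its other probe set was under the floor on all arrays. Within type V, the log2 ratio for PDGFRa(+) Sca-1(+) over PDGFRa(+) Sca-1(-) cells was 3.53 for Col5a3, 1.08 for Col5a1 and -0.19 for Col5a2.

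Col24a1 is a minor fibrillar collagen known in the mouse from developing bone. Its signal was 17.4 in PDGFRa(+) Sca-1(+) cells, 1176 in PDGFRa(+) Sca-1(-) cells and 298 in PDGFRa(-) Sca-1(-) cells. It was at least 12.6-fold lower in PDGFRa(+) Sca-1(+) than in PDGFRa(+) Sca-1(-) cells and 3.95-fold higher in PDGFRa(+) Sca-1(-) than in PDGFRa(-) Sca-1(-) cells. The summed signal of the osteoblast markers was also highest in PDGFRa(+) Sca-1(-) cells. Of 8 such markers compared with PDGFRa(-) Sca-1(-) cells, 4 were higher (50%, against 4.82% of all genes compared) and 4 within 2-fold.

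The type IV genes held a pair that was high in PDGFRa(+) Sca-1(+) cells and a pair that was high in PDGFRa(+) Sca-1(-) cells. Col4a1 and Col4a2 encode the chains of the type IV molecule found in nearly all basement membranes. Col4a5 and Col4a6 encode chains of more restricted ones, and Col4a3 and Col4a4 are known from those of kidney and lung. In the mouse RefSeq gene table of assembly GRCm38.p6, each of these pairs lies side by side on its chromosome with no protein-coding gene between. Windows of 250 bases before to 50 after the RefSeq start are printed for the 2 pairs that passed the floor together, because the genes of a pair had their highest signal in the same fraction. Capitals mark CCAAT and GGGCGG on either strand (ATTGG and CCGCCC on the reverse); TATAAA was searched too, the motifs did not overlap, and it was found in none of the 4 windows.
Col4a1, chr8:11312777-11313076, minus strand: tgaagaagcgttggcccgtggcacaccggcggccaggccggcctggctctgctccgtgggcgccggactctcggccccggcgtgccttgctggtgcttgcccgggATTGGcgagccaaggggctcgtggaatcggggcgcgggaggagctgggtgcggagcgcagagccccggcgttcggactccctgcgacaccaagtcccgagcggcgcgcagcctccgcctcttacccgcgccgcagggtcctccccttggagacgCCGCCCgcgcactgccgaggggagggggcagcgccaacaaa
Col4a2, chr8:11312555-11312854, plus strand: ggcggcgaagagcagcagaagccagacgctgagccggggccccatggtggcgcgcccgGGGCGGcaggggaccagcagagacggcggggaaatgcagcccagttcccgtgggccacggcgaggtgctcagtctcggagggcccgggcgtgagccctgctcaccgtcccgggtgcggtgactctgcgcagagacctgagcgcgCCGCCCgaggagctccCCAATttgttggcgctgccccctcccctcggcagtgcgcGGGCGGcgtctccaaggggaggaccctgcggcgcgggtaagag
Col4a5, chrX:141475169-141475468, plus strand: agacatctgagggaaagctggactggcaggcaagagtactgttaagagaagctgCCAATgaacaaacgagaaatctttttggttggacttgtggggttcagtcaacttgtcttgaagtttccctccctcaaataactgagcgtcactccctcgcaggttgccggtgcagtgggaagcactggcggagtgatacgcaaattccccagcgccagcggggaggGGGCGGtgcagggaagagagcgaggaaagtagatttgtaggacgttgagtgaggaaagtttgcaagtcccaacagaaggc
Col4a6, chrX:141474027-141474326, minus strand: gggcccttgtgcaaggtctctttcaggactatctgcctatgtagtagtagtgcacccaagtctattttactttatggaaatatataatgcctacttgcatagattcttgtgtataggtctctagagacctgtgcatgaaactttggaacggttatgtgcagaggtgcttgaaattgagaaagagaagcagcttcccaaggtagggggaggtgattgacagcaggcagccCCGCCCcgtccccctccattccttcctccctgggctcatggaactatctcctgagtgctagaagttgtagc

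The Col4a1 and Col4a2 starts lie 21 bases apart on opposite strands, so these windows share 78 bases and are not independent. The Col4a5 and Col4a6 starts lie 1343 bases apart, also on opposite strands, and their windows share none. CCAAT was found in Col4a1, Col4a2 and Col4a5 and not in the Col4a6 window, and GGGCGG in all 4. The Col4a1 and Col4a2 windows were 74.0% and 73.7% G or C, those of Col4a5 and Col4a6 52.7% and 48.3%. Of 32851 RefSeq windows of this length, 37.4% held CCAAT, 35.7% GGGCGG and 13.6% TATAAA. RefSeq windows were matched for 27 of the 34 collagen genes, 29 windows in all, of which 11 held CCAAT, 18 GGGCGG and 3 TATAAA, the last those of Col3a1, Col13a1 and Col17a1. A match describes letters and does not show binding.

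Col4a1 had a signal of 13916 in PDGFRa(+) Sca-1(+) cells, 964 in PDGFRa(+) Sca-1(-) cells and 709 in PDGFRa(-) Sca-1(-) cells. Col4a2 had 6920, 618 and 986 in that order. Both were thus highest in PDGFRa(+) Sca-1(+) cells, and neither differed 2-fold between the Sca-1(-) fractions. Col4a1 was 14.4-fold and Col4a2 11.2-fold higher in PDGFRa(+) Sca-1(+) than in PDGFRa(+) Sca-1(-) cells, and against PDGFRa(-) Sca-1(-) cells the ratios were 19.6-fold and 7.02-fold. The second Col4a1 probe set gave 10.4-fold and 7.10-fold.

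Col4a5 and Col4a6 had their highest signal in PDGFRa(+) Sca-1(-) cells. Col4a5 had 2014 in PDGFRa(+) Sca-1(+) cells, 3875 in PDGFRa(+) Sca-1(-) cells and 696 in PDGFRa(-) Sca-1(-) cells. It was 5.57-fold higher in PDGFRa(+) Sca-1(-) than in PDGFRa(-) Sca-1(-) cells and 2.89-fold higher in PDGFRa(+) Sca-1(+) than in PDGFRa(-) Sca-1(-) cells; for the last comparison its other probe set gave 1.27-fold, within 2-fold. Between PDGFRa(+) Sca-1(+) and PDGFRa(+) Sca-1(-) cells it was within 2-fold (log2 ratio -0.94), but past it by the other probe set (-1.62). Col4a6 was above the floor in PDGFRa(+) Sca-1(-) cells only, at 208, against 60.9 in PDGFRa(+) Sca-1(+) and 77.6 in PDGFRa(-) Sca-1(-) cells, so it was at least 2.23-fold higher in PDGFRa(+) Sca-1(-) cells than in both. Its other probe set gave 51.2, 367 and 16.6. Col4a4 was weak throughout, at 198, 127 and 123, and Col4a3 did not pass the floor.

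Genes of other basement membrane proteins were counted beside type IV collagen. Of 15 compared between PDGFRa(+) Sca-1(+) and PDGFRa(+) Sca-1(-) cells, 6 were higher (40%) and 3 lower (20%), against 14.9% and 11.3% of all genes compared. The median log2 ratio of the 15 was -0.42 and the mean 0.54, of opposite sign. The laminin chain genes Lamc1 (12.5-fold) and Lamb1 (10.8-fold), the linker gene Nid1 (8.64-fold) and Fbln1 (10.9-fold) were higher in PDGFRa(+) Sca-1(+) cells. Nid2, the relative of Nid1, was 8.83-fold lower, and Hspg2, which encodes perlecan, was within 2-fold (log2 ratio -0.45). Pxdn, a peroxidase that cross-links type IV collagen, was 8.96-fold higher in PDGFRa(+) Sca-1(+) cells, at 2320 against 259. In PDGFRa(+) Sca-1(-) over PDGFRa(-) Sca-1(-) cells 5 of 15 were higher (33.3%) and 0 lower, against 4.82% and 5.63% of all genes compared. In PDGFRa(+) Sca-1(+) over PDGFRa(-) Sca-1(-) cells 8 of 14 were higher (57.1%) and 3 lower (21.4%), against 14.5% and 12.2%.

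Markers of vessel cells, which also make type IV collagen, were read beside these genes. Of 12 endothelial markers, 2 were above the floor in PDGFRa(+) Sca-1(+), 4 in PDGFRa(+) Sca-1(-) and 2 in PDGFRa(-) Sca-1(-) cells, with summed signals of 1357, 1233 and 1002. Cdh5, Pecam1, Tie1, Emcn, Cldn5 and Vwf were under the floor on every array, while Tek was at 888 in PDGFRa(+) Sca-1(+) cells, against 37.4 in PDGFRa(+) Sca-1(-) cells and 13.3 in PDGFRa(-) Sca-1(-) cells. Erg went the other way, at 82.6 in PDGFRa(+) Sca-1(+) cells, under the floor, against 656 in PDGFRa(+) Sca-1(-) cells and 527 in PDGFRa(-) Sca-1(-) cells. Of 12 pericyte and smooth muscle markers, 8 were above the floor in PDGFRa(+) Sca-1(+), 7 in PDGFRa(+) Sca-1(-) and 7 in PDGFRa(-) Sca-1(-) cells, with summed signals of 8424, 14110 and 16916. Cspg4 had the highest signal of the list in both Sca-1(-) fractions, and the median signals ran the other way, at 175, 148 and 130. In the same order of fractions, Rgs5 (1503, 168 and 185) and Abcc9 (1333, 269 and 50.2) were highest in PDGFRa(+) Sca-1(+) cells like Col4a1, whereas Cspg4 (2059, 10083 and 10403) was lowest there and Myh11, Mcam and Higd1b stayed under the floor. The part of pericytes in the type IV signals was not tested.

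FACIT collagens differed between fractions in both directions, and Col14a1 had the largest ratio among collagen genes measured on both arrays of a comparison. Of 5 genes above the floor, Col14a1 was highest in PDGFRa(+) Sca-1(+) cells, Col22a1 in PDGFRa(+) Sca-1(-) cells, and Col12a1 and Col16a1 in PDGFRa(-) Sca-1(-) cells. Col14a1, a fibril-surface collagen of skin and tendon, had 22823 in PDGFRa(+) Sca-1(+) cells, 2146 in PDGFRa(+) Sca-1(-) cells and 426 in PDGFRa(-) Sca-1(-) cells. Each step was past the threshold: it was 10.6-fold higher in PDGFRa(+) Sca-1(+) than in PDGFRa(+) Sca-1(-) cells, 5.03-fold higher in PDGFRa(+) Sca-1(-) than in PDGFRa(-) Sca-1(-) cells and 53.5-fold higher in PDGFRa(+) Sca-1(+) than in PDGFRa(-) Sca-1(-) cells. Its second probe set gave 11542, 649 and 173, in the same order of fractions, and the third was under the floor.

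Col12a1, a close relative of Col14a1 found in tendon and around bone, ran in the opposite order. Its signal was 2817 in PDGFRa(+) Sca-1(+) cells, 4682 in PDGFRa(+) Sca-1(-) cells and 16506 in PDGFRa(-) Sca-1(-) cells. It was 3.53-fold lower in PDGFRa(+) Sca-1(-) than in PDGFRa(-) Sca-1(-) cells and 5.86-fold lower in PDGFRa(+) Sca-1(+) than in PDGFRa(-) Sca-1(-) cells. A second probe set had 516, 1391 and 2206, in the same order of fractions, but only 1.59-fold lower in PDGFRa(+) Sca-1(-) than in PDGFRa(-) Sca-1(-) cells, within 2-fold. Its other probe sets were under the floor. Col16a1, which is found with both fibrils and microfibrils, also ran in this order, at 1420, 2209 and 4336, and was 3.05-fold lower in PDGFRa(+) Sca-1(+) than in PDGFRa(-) Sca-1(-) cells.

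Col22a1, known from tissue junctions such as that of muscle with tendon, had 818 in PDGFRa(+) Sca-1(+) cells, 2857 in PDGFRa(+) Sca-1(-) cells and 292 in PDGFRa(-) Sca-1(-) cells. It was 9.78-fold higher in PDGFRa(+) Sca-1(-) than in PDGFRa(-) Sca-1(-) cells and 3.49-fold lower in PDGFRa(+) Sca-1(+) than in PDGFRa(+) Sca-1(-) cells. The other Col22a1 probe sets had the same highest fraction, with 6.06-fold and 3.70-fold for PDGFRa(+) Sca-1(-) over PDGFRa(-) Sca-1(-) cells. The probe set with the largest ratio carries the suffix that the array maker gives to probe sets that may match more than 1 transcript. Col20a1 was weak and flat, at 130, 156 and 161, and Col19a1 stayed under the floor.

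The beaded-filament genes that passed the floor were within 2-fold in all 3 comparisons. Col6a1, Col6a2 and Col6a3 encode the chains that assemble into one type VI molecule. Col6a1 had 22648 in PDGFRa(+) Sca-1(+) cells, 24076 in PDGFRa(+) Sca-1(-) cells and 26405 in PDGFRa(-) Sca-1(-) cells. Col6a2 had 20957, 22867 and 22177, and Col6a3 had 20202, 24439 and 26138 in that order. No pair of arrays differed by more than 1.29-fold for any of them, and the log2 ratios lay between -0.37 and 0.04. These signals are in the upper part of the arrays' range, and the part of saturation was not tested. The dimmer Col6a2 probe set, at 12634, 13097 and 13379, was as flat. Col6a4 and Col6a5 were under the floor on all arrays.

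The 2 transmembrane collagens that passed the floor were under it in PDGFRa(+) Sca-1(+) cells. Col13a1, known from the neuromuscular junction and cell adhesion sites, had 91.7 in PDGFRa(+) Sca-1(+) cells, just under the floor, against 2298 in PDGFRa(+) Sca-1(-) cells and 590 in PDGFRa(-) Sca-1(-) cells. It was at least 24.7-fold lower in PDGFRa(+) Sca-1(+) than in PDGFRa(+) Sca-1(-) cells and 3.89-fold higher in PDGFRa(+) Sca-1(-) than in PDGFRa(-) Sca-1(-) cells. Col25a1, known in the mouse from the innervation of muscle, had 22.2, 228 and 869 in that order. It was at least 9.33-fold lower in PDGFRa(+) Sca-1(+) than in PDGFRa(-) Sca-1(-) cells and 3.81-fold lower in PDGFRa(+) Sca-1(-) than in PDGFRa(-) Sca-1(-) cells. Its second probe set passed the floor in PDGFRa(-) Sca-1(-) cells only, at 157, and its ratios there were at least 1.68-fold, within 2-fold. Col17a1, a component of epithelial hemidesmosomes, and Col23a1 did not pass the floor.

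The classes outside these 5 held 6 genes. Col15a1 and Col18a1 encode multiplexins, proteoglycan collagens of basement membrane zones, and Col18a1 is the source of the fragment endostatin. Col18a1 had 1769 in PDGFRa(+) Sca-1(+) cells, 315 in PDGFRa(+) Sca-1(-) cells and 264 in PDGFRa(-) Sca-1(-) cells, 5.61-fold higher in PDGFRa(+) Sca-1(+) than in PDGFRa(+) Sca-1(-) cells, and its other probe set gave 8.29-fold. Col15a1 had 2467, 925 and 1735, so it was 2.67-fold higher in PDGFRa(+) Sca-1(+) than in PDGFRa(+) Sca-1(-) cells but within 2-fold of PDGFRa(-) Sca-1(-) cells.

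Col8a1 and Col8a2 encode the short chains of type VIII collagen, a network known from the cornea and vessel walls. Col8a1 had 4265 in PDGFRa(+) Sca-1(+) cells, 1313 in PDGFRa(+) Sca-1(-) cells and 967 in PDGFRa(-) Sca-1(-) cells, 3.25-fold higher in PDGFRa(+) Sca-1(+) than in PDGFRa(+) Sca-1(-) cells. Col8a2 had 1098, 763 and 1374, within 2-fold throughout. Col7a1, the anchoring fibril collagen of skin, lay near the floor, at 84.1, 126 and 104. Col26a1 had 33.8, 99.4 and 535, the second value being near the floor. It was 5.39-fold lower in PDGFRa(+) Sca-1(-) than in PDGFRa(-) Sca-1(-) cells. That log2 ratio, -2.43, became -1.07 with the floor at the 67th percentile. The other Col26a1 probe set was under the floor on all arrays.

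**Figure D2:**
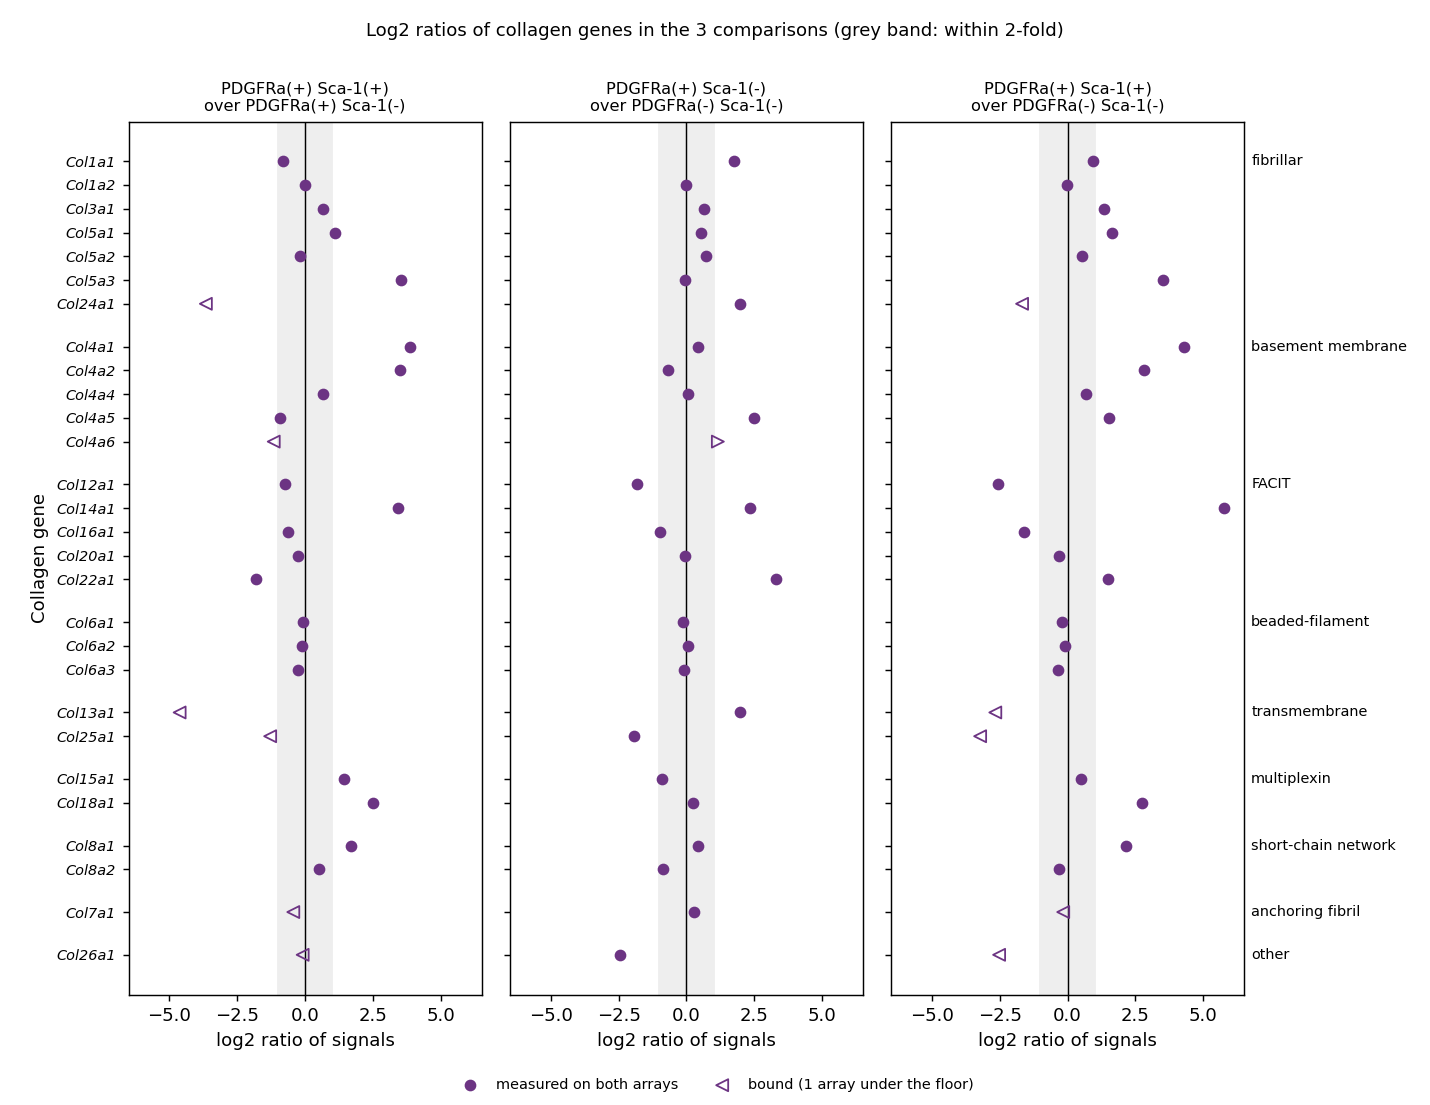
Log2 ratio of signals for the 28 collagen genes above the floor on at least 1 array, in the 3 comparisons. Filled circles were measured on both arrays, open triangles are bounds pointing in the direction of the true ratio, and the grey band marks differences within 2-fold; the type VI genes lie in the band in all 3 panels, and Col14a1 lies to its right in all 3.

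Counted over all classes, 8 of 28 collagen genes were higher and 5 lower in PDGFRa(+) Sca-1(+) than in PDGFRa(+) Sca-1(-) cells. The median log2 ratio was -0.11 and the mean 0.20, of opposite sign, and with quantile normalization the median was 0.03. Over all 11855 genes compared, 14.9% were higher and 11.3% lower, with a median of 0.07. The collagen shares were 28.6% and 17.9%. The 8 higher genes were Col4a1, Col4a2, Col5a1, Col5a3, Col8a1, Col14a1, Col15a1 and Col18a1, and the 5 lower ones Col4a6, Col13a1, Col22a1, Col24a1 and Col25a1.

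Of 28 collagen genes compared in PDGFRa(+) Sca-1(-) over PDGFRa(-) Sca-1(-) cells, 7 were higher and 3 lower, with a median log2 ratio of 0.15. Over all 11675 genes compared, 4.82% were higher and 5.63% lower, with a median of -0.03. The collagen shares were 25% and 10.7%. Col1a1, Col4a5, Col4a6, Col13a1, Col14a1, Col22a1 and Col24a1 were higher, and Col12a1, Col25a1 and Col26a1 lower. This comparison and the one before share the PDGFRa(+) Sca-1(-) array, so a signal that is high there by error would appear in both with opposite sign. The 4 genes called in both with opposite sign were Col4a6, Col13a1, Col22a1 and Col24a1.

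Of 27 collagen genes compared in PDGFRa(+) Sca-1(+) over PDGFRa(-) Sca-1(-) cells, 10 were higher and 6 lower, with a median log2 ratio of 0.51. Under the other processing settings that median ran from 0.10 to 0.68. Over all 11843 genes compared, 14.5% were higher and 12.2% lower, with a median of 0.03. The collagen shares were 37.0% and 22.2%. Beside Col4a1, Col4a2, Col5a1, Col5a3, Col8a1, Col14a1 and Col18a1, the higher genes were Col3a1, Col4a5 and Col22a1. The lower ones were Col12a1, Col13a1, Col16a1, Col24a1, Col25a1 and Col26a1.

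A gene can be 2-fold or more above both other fractions in 1 fraction only, so lists of such genes cannot overlap. Each fraction had some collagens that were 2-fold or more above both others. In PDGFRa(+) Sca-1(+) cells these were 7 genes of 28, Col4a1, Col4a2, Col5a1, Col5a3, Col8a1, Col14a1 and Col18a1, against 10.6% of the 12211 genes above the floor on at least 1 array. In PDGFRa(+) Sca-1(-) cells they were 4, Col4a6, Col13a1, Col22a1 and Col24a1, against 2.46%. In PDGFRa(-) Sca-1(-) cells they were 3, Col12a1, Col25a1 and Col26a1, against 3.19%. Below both others by 2-fold or more were Col13a1, Col24a1 and Col25a1 in PDGFRa(+) Sca-1(+) cells (6.96% of those 12211 genes), Col4a5, Col14a1 and Col22a1 in PDGFRa(-) Sca-1(-) cells (1.57%), and 0 in PDGFRa(+) Sca-1(-) cells (1.3%). With so few genes these counts describe single genes more than a class.

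Probe sets of a called gene did not contradict each other between PDGFRa(+) Sca-1(+) and PDGFRa(+) Sca-1(-) cells. Of the 13 genes called, 7 had every compared probe set called alike and 6 had 1 compared probe set. Among genes within 2-fold, Col1a1, Col3a1, Col4a5 and Col12a1 had another probe set past the threshold. The called genes Col12a1 and Col25a1 had a probe set within 2-fold in PDGFRa(+) Sca-1(-) over PDGFRa(-) Sca-1(-) cells, and in PDGFRa(+) Sca-1(+) over PDGFRa(-) Sca-1(-) cells Col4a5, Col22a1 and Col25a1 did. Col3a1 and then Col1a2 had the widest spread of log2 ratios in the first comparison. The part of signal level and of the 3' to 5' ratios in that spread was not tested.

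**Figure D3:**
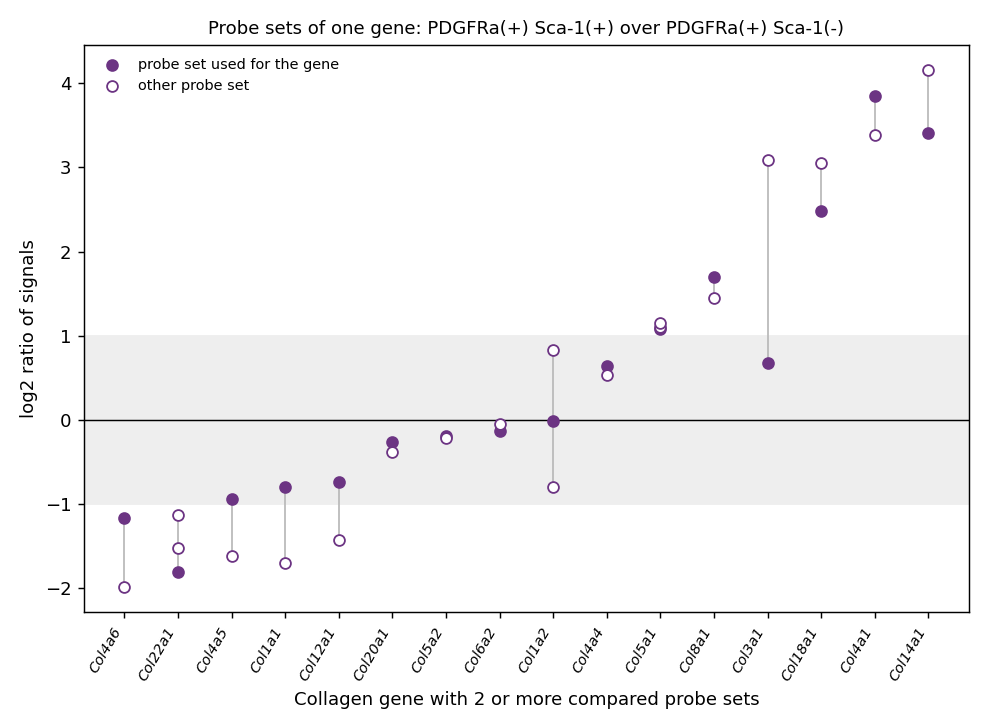
Log2 ratio of PDGFRa(+) Sca-1(+) over PDGFRa(+) Sca-1(-) cells for each compared probe set of the 16 collagen genes with 2 or more of them; filled circles are the probe set used for the gene, open circles the others, and the grey band marks differences within 2-fold. Both Col4a6 points are bounds, and so are the open circles of Col4a4 and Col20a1. Col3a1 shows the widest spread, from 0.67 to 3.08.

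Genes for enzymes and chaperones that fold and process collagen chains went both ways. Of 30 compared between PDGFRa(+) Sca-1(+) and PDGFRa(+) Sca-1(-) cells, 5 were higher (16.7%) and 9 lower (30%) while 16 stayed within 2-fold. The shares of all genes compared were 14.9% and 11.3%, so the higher share was near that of all genes. The median log2 ratio of the 30 was -0.46. The cross-linking oxidases went both ways, with Loxl1 16.4-fold higher (11010 against 673) and Loxl4 51.0-fold lower (168 against 8576). P4ha3, a prolyl hydroxylase subunit, was higher too, at 775 against 96.9, the second value being near the floor. The chaperone gene Serpinh1 was within 2-fold (log2 ratio -0.59), and so was Sparc (-0.45), which encodes a collagen-binding matrix protein. In PDGFRa(+) Sca-1(-) over PDGFRa(-) Sca-1(-) cells 2 of 30 were higher (6.67%) and 3 lower (10%), against 4.82% and 5.63% of all genes compared. Lox was 4.89-fold and Loxl4 7.09-fold higher in PDGFRa(+) Sca-1(-) cells, the fraction in which Col1a1 was also highest. In PDGFRa(+) Sca-1(+) over PDGFRa(-) Sca-1(-) cells 6 of 30 were higher (20%) and 12 lower (40%), against 14.5% and 12.2% of all genes compared. Among the lower ones was Colgalt2, which adds sugar to collagen lysines (13.6-fold lower).

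The collagen receptor genes differed in both directions. Of 7 compared between PDGFRa(+) Sca-1(+) and PDGFRa(+) Sca-1(-) cells, 2 were higher (28.6%), 3 lower (42.9%) and 2 within 2-fold. The shares of all genes compared were 14.9% higher and 11.3% lower. Ddr2, a kinase that binds fibrillar collagen, was 4.33-fold higher at 12123 against 2797, and Mrc2, an endocytic receptor for collagen, 3.54-fold higher. Adgrg6, an adhesion receptor that binds type IV collagen, was 19.1-fold lower at 325 against 6230, Itga1, a collagen-binding integrin chain, 7.35-fold lower and Itga10, the integrin chain of cartilage, 6.63-fold lower. The shared integrin chain gene Itgb1 was within 2-fold (log2 ratio 0.10). Of 8 receptors compared in PDGFRa(+) Sca-1(-) over PDGFRa(-) Sca-1(-) cells, Itga1 was called, 3.28-fold higher. That is 12.5%, against 10.4% of all genes called in either direction. In PDGFRa(+) Sca-1(+) over PDGFRa(-) Sca-1(-) cells 2 of 8 were higher (25%) and 3 lower (37.5%), against 14.5% and 12.2% of all genes compared.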

How the data were processed

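RNA from 3 sorted mouse endosteal fractions was measured on 1 Affymetrix array each, grouped by the phenotype label. The deposited values are signal intensities on a linear scale, computed with MAS5 per the submitters' processing notes; its version, detection calls and filters are not given in the sources used. Each deposited array had a 2% trimmed mean of 500.0.

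Arrays were rescaled to a common 2% trimmed mean without the 64 control probe sets. Signals under 93.2 were set to that floor, and log2 ratios were then formed. Of 45037 probe sets, 34945 had 1 symbol in the platform annotation, and probe sets with several symbols (932) or none (9160) were not used. Of those with 1 symbol, 34741 matched the RefSeq table of assembly GRCm38.p6, which changed 0 symbols. Col6a6 and Col28a1 are not analysed here. A call is a ratio of 2-fold or more among genes above the floor on at least 1 array of a comparison. No test was possible with 1 array per fraction. All collagen genes are named; members and lists were chosen with earlier results of these data known. From the other lists, up to 4 members with the largest ratios and up to 2 within 2-fold or going the other way were named. The counting was tested on simulated data with changes larger than 2-fold in genes well above the floor. It does not cover calls near the threshold or genes near the floor. Alternatives were other floors, other uses of probe sets, quantile normalization and an added constant. Python 3.11.15, numpy 2.4.6 and pandas 2.3.3 were used.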

Additional observations from a re-analysis of the deposited data

How the results depend on the processing

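The counts of called collagen genes stayed within 1.5 times under every alternative run, with these exceptions. With each probe set counted, 15 of 47 were higher and 11 lower in PDGFRa(+) Sca-1(+) over PDGFRa(+) Sca-1(-) cells, against 8 and 5 genes. In PDGFRa(+) Sca-1(-) over PDGFRa(-) Sca-1(-) cells 15 of 48 were then higher, against 7 genes, and in PDGFRa(+) Sca-1(+) over PDGFRa(-) Sca-1(-) cells 19 of 45, against 10 genes. With the floor at the 67th percentile, a signal of 256, 3 genes were lower in PDGFRa(+) Sca-1(+) than in PDGFRa(+) Sca-1(-) cells, against 5, with fewer genes compared (22 in place of 28). The medians moved by less than the scatter between probe sets. That scatter is of single genes, so it is a loose measure for a median. With quantile normalization the median for PDGFRa(+) Sca-1(+) over PDGFRa(+) Sca-1(-) cells was 0.03, against -0.11. For PDGFRa(+) Sca-1(+) over PDGFRa(-) Sca-1(-) cells the main median was 0.51. It ran from 0.10 with the floor at the 33rd percentile to 0.68 with each probe set counted. Of 377 recomputed log2 ratios of single genes, 326 moved by less than that scatter, 51 by more, and 0 called ratios changed sign. This tally is not an independent check. Many ratios repeat the main value because the setting left that gene's signals unchanged, and another floor or an added constant cannot reverse the sign of a called ratio. With the mean over probe sets, Col3a1 was higher in PDGFRa(+) Sca-1(+) than in PDGFRa(+) Sca-1(-) cells at a log2 ratio of 1.88, and Col25a1 (-0.64) was no longer called lower. Col1a1 (-1.25) and Col4a5 (-1.28) were called lower there with the mean. With the floor at the 33rd percentile, Col23a1 and Col26a1 were called in that comparison too. Quantile normalization made Col1a1 higher in PDGFRa(+) Sca-1(+) than in PDGFRa(-) Sca-1(-) cells (log2 ratio 1.06). In PDGFRa(+) Sca-1(-) over PDGFRa(-) Sca-1(-) cells Col12a1 (-0.62) was no longer called with the mean. Calls also ended for Col4a6 in PDGFRa(+) Sca-1(-) cells against both others with the floor added to each signal, and in PDGFRa(+) Sca-1(+) over PDGFRa(-) Sca-1(-) cells for Col24a1 at the higher floor, for Col4a5 with the mean and for Col22a1 without probe sets that may match several transcripts. Signal over the floor was the limit for Col4a6, Col7a1, Col13a1, Col24a1, Col25a1 and Col26a1, which have bounds. No paired analysis was possible because each fraction had 1 array and the labels give no replicate numbers.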
